A study of Mus musculus with 20 samples.

Results

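The genes described here encode the pyruvate dehydrogenase complex and enzymes of the Krebs cycle in mouse plantaris muscle. The 9 genes were taken by name, namely Pdha1 and Pdpr of the pyruvate dehydrogenase complex and its regulation and Cs, Idh3a, Idh2, Ogdh, Suclg1, Fh1 and Mdh2 of the cycle, and each symbol was matched to 1 Ensembl gene among the 54532 genes of the count tables. The rule that chose them used only their names, but they were picked with earlier results of these data known. All 9 passed the filter on low counts in every comparison.

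Pyruvate made by glycolysis enters the mitochondrial matrix through the pyruvate carrier and is turned into acetyl-CoA by the pyruvate dehydrogenase complex. Kinases of the Pdk family phosphorylate the complex and switch it off, and phosphatases of the Pdp family switch it on again. The Krebs cycle oxidizes the acetyl group and passes electrons to the respiratory chain, and in skeletal muscle these enzymes are more abundant in oxidative fibres, so that citrate synthase is often used as a measure of mitochondrial content.

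The libraries were made from the plantaris, a calf muscle, of male C57BL/6J mice aged 5 months, 10 days after surgery, and read by RNA-seq. The sham control and MOV control groups were left plantaris muscles that had received a control lentivirus with sham surgery or with mechanical overload (MOV), in which synergists of the plantaris are cut away in both legs and its load increases. The sham mimic and MOV mimic groups were right plantaris muscles that had received a lentivirus carrying a mimic of miR-1, a microRNA made in muscle, with the same surgeries. The study reports that the mimic did not raise miR-1 in sham muscle and only lessened its fall in overloaded muscle. Both viruses carried a mouse CMV promoter, which can act in cells other than muscle fibres, and a Turbo-GFP reporter, and the 4 groups held 5 libraries each.

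Values per library are TMM-scaled CPM, in which each count is taken relative to the total counted on genes in its library, and differences are log2 fold changes (log2FC). They come from edgeR's quasi-likelihood test on the raw counts of both groups (10 libraries), which is two-sided, and p-values were adjusted by the method of Benjamini and Hochberg over all genes tested. A gene was called at an adjusted p under 0.05. By the study's methods 5 mice had sham surgery and 5 had MOV, so that the 5 libraries of a group are taken as separate mice, and the labels do not say which left and right muscles belong to 1 mouse. The number of reads counted on genes was between 12036360 and 23056525 per library, and the 9 genes had from 284 counts (Pdpr, lowest library) to 16915 counts (Ogdh, highest library). Genes that mark muscle fibres in general (15 genes, among them Acta1 and Ckm) summed to between 49822 and 118314 CPM in the 20 libraries.

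Library 1 of sham control and library 1 of sham mimic stood apart from the other sham libraries. The 8 fibroblast markers summed to 1295 and 1913 CPM in these 2 libraries, against 5981 to 13629 CPM in the other sham control and 6607 to 12467 CPM in the other sham mimic libraries. All 9 genes were highest in these libraries within their groups, so that counts without them, and the values that moved most, are given beside the results. Fewer cells of a type and less RNA per cell cannot be told apart in such bulk samples.

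In sham control, relative to the length of their annotated exons, the levels were highest for Mdh2 (362 ± 72.7 CPM per kb, SD, n = 5), Cs (297 ± 73.3) and Idh3a (258 ± 72.3). Idh2 (143 ± 51.5), Ogdh (141 ± 31.8) and Pdha1 (131 ± 31.2) followed, then Fh1 (88.6 ± 21.3) and Suclg1 (63.0 ± 19.5), and Pdpr was lowest (11.0 ± 2.66). The ranges of all neighbours in this order overlapped over the 5 libraries except those of Suclg1 and Pdpr. The place of Suclg1 depends on the length used, because its annotated exons add up to 4617 bases but its longest coding transcript has 1519. Per kb of that transcript Suclg1 had 191 ± 59.3 CPM, between Idh2 (206 ± 74.4) and Ogdh (184 ± 41.6), and the other 8 genes kept their order.

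The promoters of 4 of the genes are shown, those of Pdpr and Pdha1, whose MOV and sham groups did not overlap under either virus, and those of Cs and Ogdh, whose groups overlapped under both. Fh1 and Mdh2, which did not overlap under either virus, and Idh2, which overlapped under both, met the same descriptions and are not shown. Each run is the 250 bases before a transcript start in RefSeq on GRCm38.p6, written 5′ to 3′ on the strand of the gene, at chr8:111094495-111094744 (plus strand, ending inside the annotated gene), chrX:160138431-160138680 (minus strand), chr11:6291347-6291596 (plus strand, the first of 6 annotated starts) and chr10:128337477-128337726 (plus strand). Capitals mark matches on either strand to TGACGTCA (the cyclic AMP response element), CCAAT and GGGCGG (the GC box), letters that were picked after the sequences had been seen.
Pdpr: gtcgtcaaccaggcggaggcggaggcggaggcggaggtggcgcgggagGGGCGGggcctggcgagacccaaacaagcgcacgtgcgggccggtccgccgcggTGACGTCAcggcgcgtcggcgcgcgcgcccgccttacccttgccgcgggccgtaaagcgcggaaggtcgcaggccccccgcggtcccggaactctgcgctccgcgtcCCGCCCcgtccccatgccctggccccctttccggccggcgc
Pdha1: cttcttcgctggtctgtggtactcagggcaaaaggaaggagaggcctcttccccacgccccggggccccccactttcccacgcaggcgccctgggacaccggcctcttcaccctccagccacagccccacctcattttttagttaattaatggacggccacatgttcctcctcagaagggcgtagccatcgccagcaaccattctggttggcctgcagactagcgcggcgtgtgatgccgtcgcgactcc
Ogdh: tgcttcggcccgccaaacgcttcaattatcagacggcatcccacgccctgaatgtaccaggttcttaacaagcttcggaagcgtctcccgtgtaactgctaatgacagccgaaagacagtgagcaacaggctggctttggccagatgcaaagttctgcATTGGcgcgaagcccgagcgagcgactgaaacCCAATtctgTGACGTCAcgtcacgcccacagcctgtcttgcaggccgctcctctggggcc
Cs: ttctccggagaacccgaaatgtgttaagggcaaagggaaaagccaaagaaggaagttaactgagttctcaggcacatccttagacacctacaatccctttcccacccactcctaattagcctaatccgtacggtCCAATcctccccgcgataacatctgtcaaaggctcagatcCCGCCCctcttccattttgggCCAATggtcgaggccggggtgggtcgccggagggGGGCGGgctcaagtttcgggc
The Pdpr run had a GC content of 78.4%, against 61.6% in Pdha1, 57.2% in Ogdh and 55.2% in Cs. RefSeq windows of 300 bases (250 before and 50 after a start) were at hand for 8 of the 9 genes, all but Idh3a, and their first windows had a median GC content of 60.8% and a median of 20.5 CpG, against 52.7% and 7 CpG over 32851 windows of all genes. Ogdh had 6 windows, which partly overlap, and each of the other genes had 1. Counted by gene, with a match in any window of the gene, TGACGTCA was found in 3 of the 8 (Mdh2, Pdpr and Ogdh) and in 2.03% of the 27025 genes with a window, CCAAT in 4 of 8 and 41.1%, and GGGCGG in 6 of 8 and 38.2%. The NRF1 motif, TNAAGGTCA (the ERR motif) and CCGGAAGT (the GABP motif) were found in none of the 8 (0 of 8) and in 5.19%, 1.43% and 4.31% of all genes with a window, which says only that these letters are not in these windows.

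The comparison of MOV control with sham control asks how overload alters these genes under the control virus. All 9 genes had a log2FC below 0 in MOV control, as 45.8% of the 14974 genes tested did, with a median of -0.67 against 0.04 over all of these. Pdpr, Idh3a, Idh2 and Pdha1 had the largest differences (-0.94, -0.73, -0.72 and -0.70), and Cs and Ogdh the smallest (-0.34 and -0.27). The 5 genes Pdpr, Pdha1, Idh3a, Fh1 and Mdh2 had every MOV control library below every sham control library, which 2.45% of all genes tested did.

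None of the 9 genes was called by edgeR (0 of 9), which called 1 gene of all those tested as lower (0.00668%), namely Nos1 (named after its values were seen), and none as higher. At an unadjusted p under 0.05, 7 of the 9 were lower (all but Cs and Ogdh), against 9.15% of all genes. DESeq2 called 5 of the 9 as lower (Pdpr, Pdha1, Idh3a, Suclg1 and Fh1), against 3.47% of all genes. Without library 1 of sham control, edgeR called 0 of the 9 and 5 had an unadjusted p under 0.05 (13.7% of all genes in either direction). DESeq2 then called 3 as lower (Pdpr, Pdha1 and Idh3a, against 1.92% of all genes), and 5 genes did not overlap (2.74%). Without library 3 of sham control edgeR called 3 as lower (Pdpr, Pdha1 and Idh3a, against 1.66% of all genes), and without library 5 of MOV control it called 1 (Pdpr, against 1.35%).

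**Figure D1:**
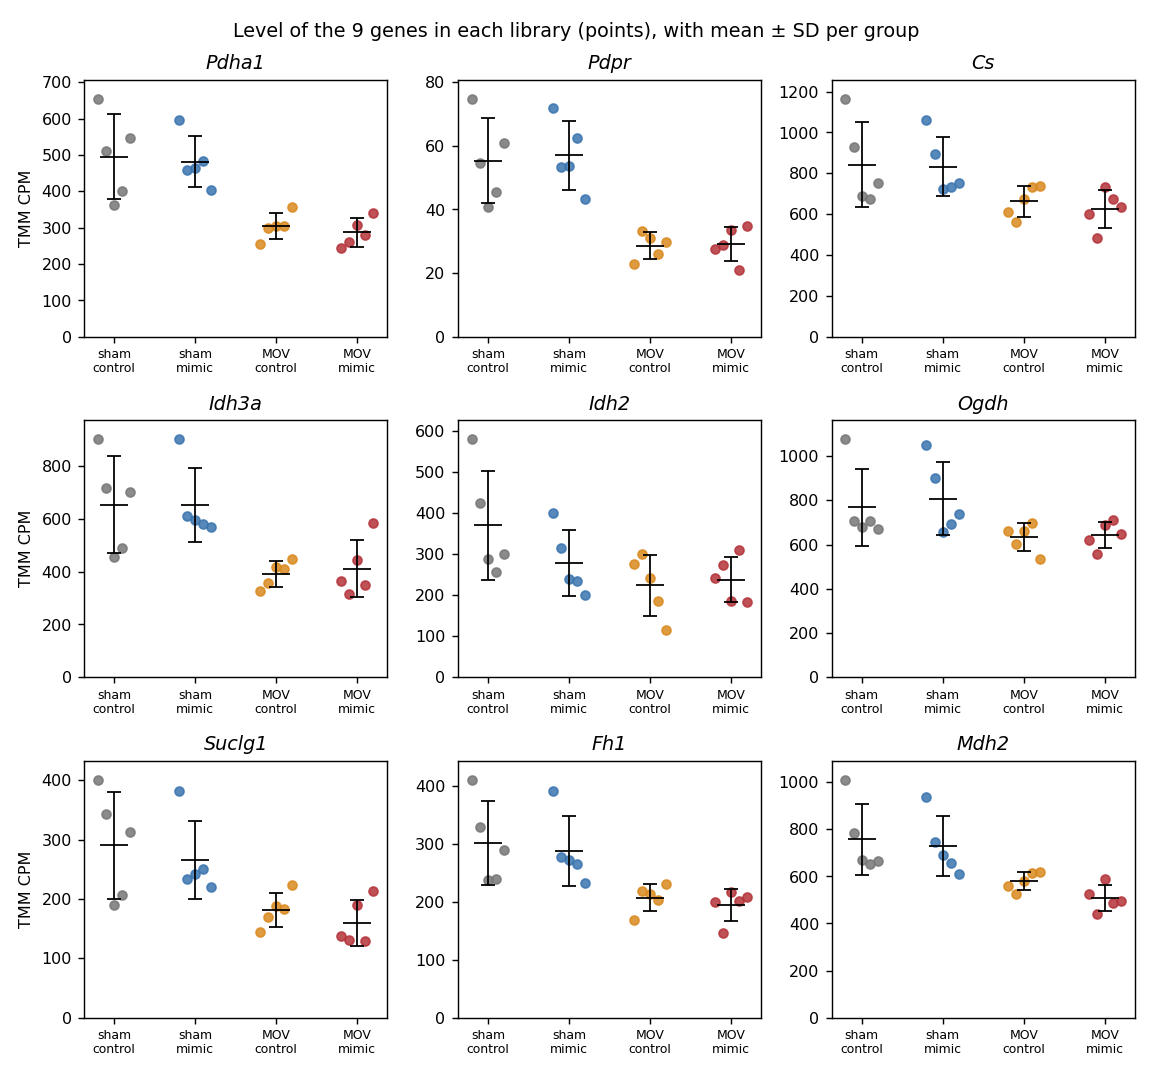
Level of each of the 9 genes (TMM CPM, vertical axes from 0, each panel with its own scale) in the 20 libraries, grouped by surgery and virus, with points for libraries in the order of their numbers and bars for the mean ± SD of 5 libraries. In Pdha1, Pdpr and Fh1 the 10 MOV libraries lie below the 10 sham libraries (for Fh1 by a small margin, with 231 CPM in the highest MOV and 232 CPM in the lowest sham library), and in every panel library 1 is the highest point of each sham group. The 10 libraries of each surgery are left and right muscles of 5 mice. How many of all genes separate in this way was not counted.

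Pdha1 encodes the alpha subunit of the first enzyme of the pyruvate dehydrogenase complex, the subunit that the Pdk kinases phosphorylate (ENSMUSG00000031299, chrX:160122219-160138430 on GRCm38.p6). Its levels were 655, 512, 361, 401 and 548 CPM in sham control libraries 1 to 5 and 254, 299, 305, 305 and 358 CPM in MOV control libraries 1 to 5. The groups did not overlap, although the highest MOV control library (358 CPM) was close to the lowest sham control library (361 CPM). The log2FC was -0.70 (standard error 0.17), a level 38.3% lower, with adjusted p = 0.0715 from edgeR and 0.00512 from DESeq2. With the mimic, its levels were 595, 459, 464, 484 and 404 CPM in the sham libraries and 243, 261, 307, 281 and 342 CPM in the MOV libraries, again without overlap. This gave a log2FC of -0.74 (standard error 0.15), with adjusted p = 0.213 from edgeR and 0.000457 from DESeq2. Pdha1 shares its locus with Map3k15 and Gm39547 in the RefSeq annotation, and the strand setting of the counting is not given in the sources used here, so that reads from overlapping genes may not be told apart.

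Pdpr encodes the regulatory subunit of the phosphatase that reactivates the complex (ENSMUSG00000033624, chr8:111094609-111139781, overlapping 9430091E24Rik). Its levels were 74.8, 54.5, 40.8, 45.6 and 60.7 CPM in sham control and 22.8, 33.3, 31.1, 26.0 and 29.8 CPM in MOV control. Each MOV control library was below each sham control library, and the log2FC was -0.94 (standard error 0.17), a level 48.0% lower, with adjusted p = 0.0554 from edgeR and 0.000189 from DESeq2. By edgeR's p it ranked 29 of the 14974 genes tested. With the mimic the levels were 72.0, 53.4, 53.6, 62.6 and 43.3 CPM in sham and 27.5, 28.8, 33.4, 21.0 and 34.9 CPM in MOV libraries, also without overlap. The log2FC was -0.96 (standard error 0.17), rank 7 of 14918 genes by p, with adjusted p = 0.201 from edgeR and 0.000465 from DESeq2. Leaving out 1 library at a time, DESeq2 called Pdpr and Pdha1 in 10 of 10 fits of each overload comparison.

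The ratio of Pdpr to Pdha1 was nearly constant among sham control libraries (0.106 to 0.114) and was 0.0832 to 0.111 in MOV control, where 4 of 5 libraries were below the sham control range. With the mimic the ratio was 0.107 to 0.129 in sham and 0.0746 to 0.113 in MOV libraries, so that the groups overlapped.

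Cs encodes citrate synthase, which joins acetyl-CoA and oxaloacetate (ENSMUSG00000005683, chr10:128337727-128362482, overlapping Gm51822 and Gm23182). Its levels were 1165, 927, 687, 676 and 750.2 CPM in sham control and 610.0, 563, 675, 730.4 and 737 CPM in MOV control. Sham control libraries 3, 4 and 5 lay within or close to the range of the MOV control libraries, and the log2FC was -0.34 (standard error 0.17), with a 95% confidence interval of -0.71 to 0.04 and adjusted p = 0.330 from edgeR. Without library 1 of sham control it was -0.19. Under the mimic, Cs had 1059, 893, 724, 733 and 753 CPM in sham and 602, 482, 734, 673 and 636 CPM in MOV libraries, where MOV library 3 reached into the sham range. The log2FC was -0.40 (standard error 0.16), with adjusted p = 0.323 from edgeR. A stretch of 9.44% of the Cs transcript had a copy of 95.2% identity elsewhere in the mouse genome (NCBIM37), the only such place of at least 200 bases and 95% identity among the 9 genes.

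Idh3a encodes the catalytic subunit of the NAD-dependent isocitrate dehydrogenase of the cycle (ENSMUSG00000032279, chr9:54586511-54604662). Its levels were 902, 718, 457, 489 and 701 CPM in sham control and 327, 355, 418, 410.5 and 448 CPM in MOV control. The groups did not overlap, and the log2FC was -0.73 (standard error 0.19), with adjusted p = 0.0813 from edgeR and 0.00841 from DESeq2. With the mimic, levels were 902, 610.4, 594, 579 and 570.3 CPM in sham and 366, 314, 442, 348 and 583 CPM in MOV libraries. Here MOV mimic library 5 lay within the sham range and the other 4 MOV libraries lay below it. The log2FC was -0.65 (standard error 0.20), with adjusted p = 0.285 from edgeR and 0.0645 from DESeq2, and -0.83 without MOV mimic library 5.

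The ratio of Cs to Idh3a had a mean of 1.31 ± 0.159 (SD, n = 5) in sham control and 1.70 ± 0.120 in MOV control, and the ranges (1.07 to 1.504 and 1.59 to 1.87) did not overlap. With the mimic the ranges were 1.17 to 1.46 in sham and 1.09 to 1.93 in MOV libraries, and library 5 was the MOV library at the lower end. Other ratios were also computed. Under the control virus Ogdh to Idh3a (0.958 to 1.48 in sham, 1.20 to 2.02 in MOV) and Idh2 to Idh3a (0.428 to 0.642 and 0.258 to 0.842) overlapped. So did the ratios of Pdk2, Pdk4 and Pdp1 to Pdha1. How many other pairs of genes do not overlap was not counted.

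Idh2 encodes the NADP-dependent isocitrate dehydrogenase of mitochondria, which supplies NADPH beside the cycle (ENSMUSG00000030541, chr7:80094845-80118608). Its levels were 579, 423, 289, 256 and 300.4 CPM in sham control and 275, 299, 242, 186 and 115 CPM in MOV control. The groups overlapped widely, and MOV control library 5 was the lowest of all 10. The log2FC was -0.72 (standard error 0.28), with adjusted p = 0.195 from edgeR, and -0.50 without library 1 of sham control. Under the mimic, Idh2 had 399.8, 315, 238, 235 and 199.7 CPM in sham and 240.4, 272, 185, 308 and 182 CPM in MOV libraries. The log2FC was -0.21 (standard error 0.21), the smallest of the 9 in this comparison, with adjusted p = 0.676 from edgeR and a 95% confidence interval of -0.66 to 0.24. It was -0.057 without library 1 of sham mimic and -0.13 without library 3 of MOV mimic.

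Ogdh encodes the first enzyme of the 2-oxoglutarate dehydrogenase complex, which is built like the pyruvate dehydrogenase complex (ENSMUSG00000020456, chr11:6291597-6359094, overlapping Gm46270 and Gm45933). Its levels were 1077, 708, 677, 707 and 672 CPM in sham control and 661, 604, 663, 699 and 536 CPM in MOV control. Sham control library 1 was far above the other 4, which lay between 672 and 708 CPM and overlapped the MOV control libraries. The log2FC was -0.27 (standard error 0.16), with a 95% confidence interval of -0.62 to 0.08, and -0.12 without that library. In sham mimic Ogdh had 1048, 900.5, 655, 692 and 737 CPM and in MOV mimic 621, 559, 687, 709.8 and 646 CPM, with overlap, and the log2FC was -0.31 (standard error 0.16) with adjusted p = 0.402 from edgeR.

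Suclg1 encodes the alpha subunit of succinyl-CoA ligase, the step of the cycle that makes a nucleoside triphosphate directly (ENSMUSG00000052738, chr6:73248505-73276907, overlapping Gm38834). Its levels were 401, 342, 191, 206 and 313 CPM in sham control and 145, 169.6, 188, 184 and 224 CPM in MOV control, where only MOV control library 5 reached above the lowest sham libraries. The log2FC was -0.67 (standard error 0.21), with adjusted p = 0.124 from edgeR and 0.0415 from DESeq2. With the mimic, levels were 382, 233, 242, 249.8 and 219.9 CPM in sham and 138, 130.0, 189.8, 129 and 213 CPM in MOV libraries, without overlap. The log2FC was -0.72 (standard error 0.20), with adjusted p = 0.272 from edgeR and 0.0409 from DESeq2. DESeq2 called Suclg1 in 3 of 10 fits with 1 library left out in each overload comparison, so that its call depended on which library was left out.

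Fh1 encodes fumarase, which adds water to fumarate (ENSMUSG00000026526, chr1:175601378-175625635). Its levels were 410.2, 329, 237, 238 and 289 CPM in sham control and 169, 218, 214, 202 and 231 CPM in MOV control, and the groups did not overlap. The log2FC was -0.53 (standard error 0.17), with adjusted p = 0.125 from edgeR and 0.0413 from DESeq2. Under the mimic, Fh1 had 390.4, 276, 272, 264 and 232 CPM in sham and 199, 146, 217, 201 and 208 CPM in MOV libraries, again without overlap, and the log2FC was -0.55 (standard error 0.16) with adjusted p = 0.272 from edgeR and 0.0581 from DESeq2. The call of Fh1 in MOV control against sham control was made by DESeq2 in 3 of 10 fits with 1 library left out.

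Mdh2 encodes the mitochondrial malate dehydrogenase, which regenerates oxaloacetate and also serves the malate-aspartate shuttle (ENSMUSG00000019179, chr5:135778649-135790386). Its levels were 1011, 785, 669, 651 and 666 CPM in sham control and 558, 526, 582, 612 and 619 CPM in MOV control. The groups did not overlap, but the lowest sham control library (651 CPM) was close to the highest MOV control library (619 CPM). The log2FC was -0.38 (standard error 0.15), with adjusted p = 0.208 from edgeR and 0.0935 from DESeq2. Under the mimic, Mdh2 had 937, 747, 690.1, 658 and 608 CPM in sham and 525, 440.4, 588, 486 and 497 CPM in MOV libraries, without overlap. The log2FC was -0.51 (standard error 0.15), with adjusted p = 0.272 from edgeR and 0.0316 from DESeq2, which called it in 3 of 10 fits with 1 library left out.

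The comparison of MOV mimic with sham mimic asks the same question under the mimic. It shares no library with the comparison under the control virus, but the right and left muscles came from the same mice. All 9 genes had a log2FC below 0 in MOV mimic, as 48.2% of the 14918 genes tested did, with a median of -0.55 against 0.02 over all of these, and Pdpr and Pdha1 had the largest differences (-0.96 and -0.74). edgeR called 0 of the 9 and 0 of all genes (0.0%). At an unadjusted p under 0.05, 7 of the 9 were lower (all but Idh2 and Ogdh), against 6.08% of all genes, and 5 did not overlap (Pdpr, Pdha1, Suclg1, Fh1 and Mdh2), against 1.74% of all genes. DESeq2 called 4 of the 9 as lower (Pdpr, Pdha1, Suclg1 and Mdh2), against 0.637% of all genes. Without library 1 of sham mimic, edgeR called 0 of the 9, 6 had an unadjusted p under 0.05 (8.68% of all genes in either direction), and DESeq2 called 2 as lower (Pdpr and Pdha1, against 0.169%). Without MOV mimic library 5 edgeR called the same 2 genes as lower, against 0.333% of all genes.

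When libraries were scaled to the 15 fibre genes instead of by TMM, the median log2FC of all genes moved by 0.07 in MOV control against sham control and by 0.34 in MOV mimic against sham mimic. On that scale 9 of the 9 genes had a log2FC below 0 under the control virus and 7 of the 9 under the mimic, with medians over the 9 of -0.53 and -0.23. Idh2 and Ogdh in MOV mimic against sham mimic then had a log2FC of 0.21 and 0.04, which were -0.15 and -0.31 relative to the median of all genes. Taking off this median largely undoes the change of scale, so that such values are no separate check on it. Pdpr had a log2FC of -0.84 and -0.61 on that scale in the 2 comparisons, or -0.95 and -0.97 relative to the median of all genes, and no gene was called on this scale by edgeR (0 of 9, with unadjusted p under 0.05 for 7 genes under the control virus, against 14.3% of all genes, and for Pdpr alone under the mimic, against 17.7%).

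**Figure D2:**
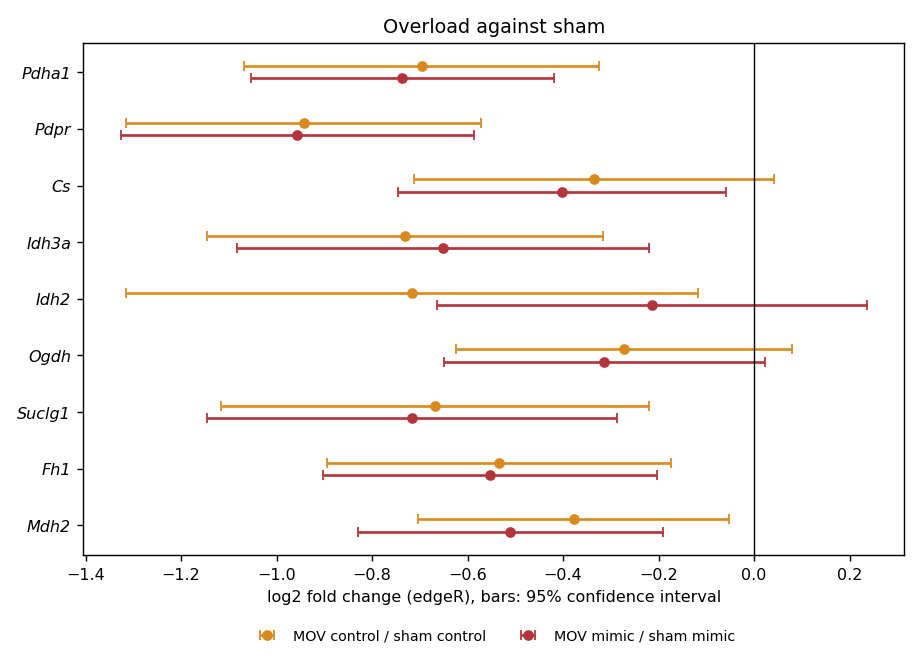
log2 fold change of the 9 genes in MOV against sham muscle, under the control virus and under the mimic, with 95% confidence intervals from edgeR (5 libraries per group). All 18 points lie below 0, with Pdpr furthest from 0 in both comparisons, and the intervals of Ogdh in both, of Cs under the control virus and of Idh2 under the mimic reach 0.

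The fibre and cell type markers were read beside these differences. In MOV control the 8 fibroblast markers summed to 4251 to 15971 CPM and the 12 leukocyte markers to 204 to 733 CPM, against 1295 to 13629 and 202 to 884 CPM in sham control. In MOV mimic the sums were 7263 to 12939 and 414 to 876 CPM, against 1913 to 12467 and 206 to 795 CPM in sham mimic. Every fibroblast marker was detected in every library, and of the leukocyte markers only Cd79a, a B cell gene, was at 0 counts in any library. MOV control libraries 4 and 5 had fibroblast sums of 5838 and 4251 CPM, below those of library 2 of sham control and of sham mimic (5981 and 6607 CPM). The mean log2 CPM of the 9 genes was 8.07 and 8.06 in the former and 8.75 and 8.59 in the latter. Among high sums, it was 8.28 in sham control library 3 (13629 CPM) and 8.12 in MOV control library 3 (13984 CPM). With the mimic, it was 8.45 in sham library 3 (12467 CPM) and 7.81 in MOV library 2 (12939 CPM).

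Over the 9 genes, the mean log2 CPM was 7.81 to 8.14 in the 10 MOV libraries and 8.28 to 9.13 in the 10 sham libraries. The 10 libraries of each surgery were left and right muscles of 5 mice. In sham control the mean of the 9 genes decreased in the order of the fibroblast sum, from 9.13 at 1295 CPM to 8.28 at 13629 CPM. Sham mimic did not keep this order, with 8.32 at 9989 CPM, 8.47 at 10945 CPM and 8.45 at 12467 CPM. In MOV control the mean was 8.06 both at the lowest sum (4251 CPM) and at the highest (15971 CPM), and 7.92 at 13661 CPM. In MOV mimic it was lowest (7.81) at the highest sum (12939 CPM). The part of the marked cell types in the group differences was not tested.

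**Figure D3:**
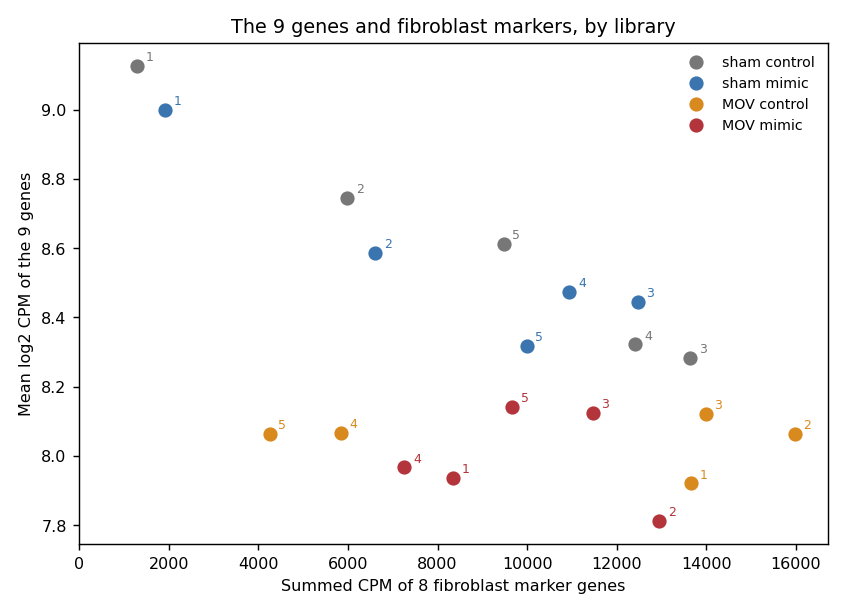
Mean log2 CPM of the 9 genes (vertical axis) against the summed CPM of 8 fibroblast marker genes (horizontal axis) in the 20 libraries, with library numbers beside the points. The 10 MOV libraries lie between 7.81 and 8.14 and the 10 sham libraries between 8.28 and 9.13. The 10 libraries of each surgery are left and right muscles of 5 mice.

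The kinases and phosphatases of the pyruvate dehydrogenase complex had overload log2FC of both signs, and edgeR called none of them. Pdk2, a kinase of muscle mitochondria, had 563, 365, 347, 348 and 346 CPM in sham control and 261, 249.8, 260.0, 228 and 305 CPM in MOV control, without overlap. Its log2FC was -0.59 (standard error 0.16), with adjusted p = 0.0905 from edgeR and 0.0118 from DESeq2, and -0.47 (standard error 0.20) under the mimic, with adjusted p = 0.346. Pdk4, a kinase raised by fasting and fat use, had 471, 226, 156, 321 and 510.4 CPM in sham control and 176, 315, 190.2, 324 and 437 CPM in MOV control, which overlapped. Its log2FC was -0.22 (standard error 0.33), with adjusted p = 0.768 from edgeR, and -0.29 (standard error 0.26) under the mimic.

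Pdk1 had 93.1 ± 12.1 CPM (SD, n = 5) in sham control and 103 ± 18.9 CPM in MOV control, with a log2FC of 0.15 (standard error 0.15). Under the mimic it had 98.9 ± 9.35 and 84.0 ± 11.7 CPM, and the log2FC had the opposite sign, -0.23 (standard error 0.13), with adjusted p of 0.625 and 0.458 from edgeR in the 2 comparisons. Pdk3, a kinase with low levels in muscle, had 0.233, 3.00, 5.21, 6.17 and 2.35 CPM in sham control and 7.93, 8.62, 9.37, 7.50 and 4.43 CPM in MOV control, where MOV control library 5 lay within the sham range. Its log2FC was 1.15 (standard error 0.52), with adjusted p = 0.259 from edgeR, and 0.80 (standard error 0.36) under the mimic, with adjusted p = 0.364. The catalytic phosphatase subunits Pdp1 and Pdp2 had log2FC of -0.32 (standard error 0.24) and -0.28 (standard error 0.27) under the control virus, with adjusted p of 0.511 and 0.619 from edgeR, and their groups overlapped.

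Beyond the 9 genes, 9 of the 12 genes of the complex, its regulators and the pyruvate carrier had a log2FC below 0 in MOV control against sham control, with a median of -0.30. edgeR called 0 of them, 4 were lower and 1 (Pdk3) was higher at an unadjusted p under 0.05 (18.2% of all genes in either direction), and DESeq2 called 2 as lower, Pdk2 and Mpc2 (3.47% of all genes). Mpc2, a subunit of the pyruvate carrier that was named after its values were seen, had 346, 277, 157, 176 and 255 CPM in sham control and 110.2, 112, 130.2, 121 and 142 CPM in MOV control, without overlap, and a log2FC of -0.97 (standard error 0.20) with adjusted p = 0.0554 from edgeR. Under the mimic, 11 of the 12 were below 0, with a median of -0.31, and both tools called 0, with 4 lower and 1 higher at an unadjusted p under 0.05 in edgeR (13.4% of all genes in either direction). Mpc2 then had 275, 166, 216, 185 and 200.1 CPM in sham and 122, 107, 156, 119.7 and 175 CPM in MOV libraries, which overlapped, and a log2FC of -0.60 (standard error 0.18), with adjusted p = 0.272 from edgeR and 0.0623 from DESeq2. Pdhb, the partner subunit of Pdha1, had a log2FC of 0.01 (standard error 0.13) under the control virus, where Pdha1 had -0.70, and -0.21 (standard error 0.19) under the mimic.

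Another list held 9 further genes of the cycle (Idh3b, Idh3g, Dlst, Suclg2, Sucla2 and the Sdh genes Sdha to Sdhd), and all 9 had a log2FC below 0 in both overload comparisons, with medians of -0.37 under the control virus and -0.51 under the mimic. edgeR called 0 of them in either, with 5 and 6 lower at an unadjusted p under 0.05, against 9.15% and 6.08% of all genes. DESeq2 called 4 as lower under the control virus, namely Sdha, Sdhb, Idh3b and Idh3g (3.47% of all genes), and 3 under the mimic, namely Sdha, Sdhb and Suclg2 (0.637%). Sdha, the flavoprotein subunit of succinate dehydrogenase, had a log2FC of -0.66 (standard error 0.18) and -0.54 (standard error 0.16) in the 2 comparisons. The regulatory subunits Idh3b and Idh3g had -0.59 (standard error 0.19) and -0.63 (standard error 0.20) under the control virus, beside -0.73 for the catalytic subunit Idh3a, whereas Dlst, the partner of Ogdh in its complex, had -0.14 (standard error 0.14) beside -0.27 for Ogdh.

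Of 12 related enzymes outside the cycle, such as the cytosolic isoforms Idh1, Mdh1 and Aco1, 10 had a log2FC below 0 under the control virus, with a median of -0.31, and DESeq2 called 3 as lower (Pcx, Got1 and Glud1, against 3.47% of all genes), edgeR 0. Under the mimic 10 were below 0, with a median of -0.29, and neither tool called any (2 at an unadjusted p under 0.05 in edgeR, against 13.4% of all genes in either direction). The medians of 13 nuclear genes of the respiratory chain were -0.42 and -0.43 in the 2 comparisons, of 9 transcripts of the mitochondrial genome -0.73 and -0.57, of 11 glycolytic genes -0.42 and -0.33, and of the 15 fibre genes -0.05 and -0.37. Medians of -0.30 and -0.29 were found for 8 fast fibre genes and of 0.89 and 1.38 for 8 slow fibre genes. Single genes of these lists differed from their medians. Of the fast genes 6 of 8 were below 0 in each comparison, and of the slow genes 2 of 8 under the control virus and 1 of 8 under the mimic. Under the control virus DESeq2 called 2 fast genes and 1 slow gene, Myl2, as lower, against 3.47% of all genes (Myl2 -0.69 (standard error 0.22) in edgeR, named after its values were seen). Under the mimic it called 0 fast genes in either direction and 1 slow gene, Tpm3, as higher, against 0.845% of all genes (Tpm3 1.35 (standard error 0.34) in edgeR, named likewise), and edgeR called 0 of the 16 in both. The 6 genes of satellite cells and regenerating fibres had medians of 1.29 and 0.61, and the 6 endothelial genes -0.43 and -0.51. The medians of the 11 leukocyte genes tested were -0.36 and 0.51, of the 8 fibroblast genes -0.08 and -0.01, and of the 4 adipocyte genes tested -1.44 and -1.19. These medians are on the TMM scale. On the scale of the fibre genes those under the mimic were 0.03 for the complex and its regulators and 0.05 for the related enzymes, both with the sign turned. They were -0.17 for the further cycle genes, -0.10 for the nuclear respiratory chain, -0.21 for the mitochondrial transcripts and -0.01 for glycolysis. Under the control virus the 6 medians on that scale were between -0.62 (mitochondrial transcripts) and -0.22 (the complex and its regulators). Also on that scale, medians under the mimic were -0.007 for the fast, 1.77 for the slow and -0.08 for the 15 fibre genes. They were 0.96 for satellite cell, -0.16 for endothelial, 0.88 for leukocyte, 0.25 for fibroblast and -0.83 for adipocyte genes. Under the control virus the fibroblast median turned from -0.08 to 0.005, and no other of these medians changed sign.

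**Figure D4:**
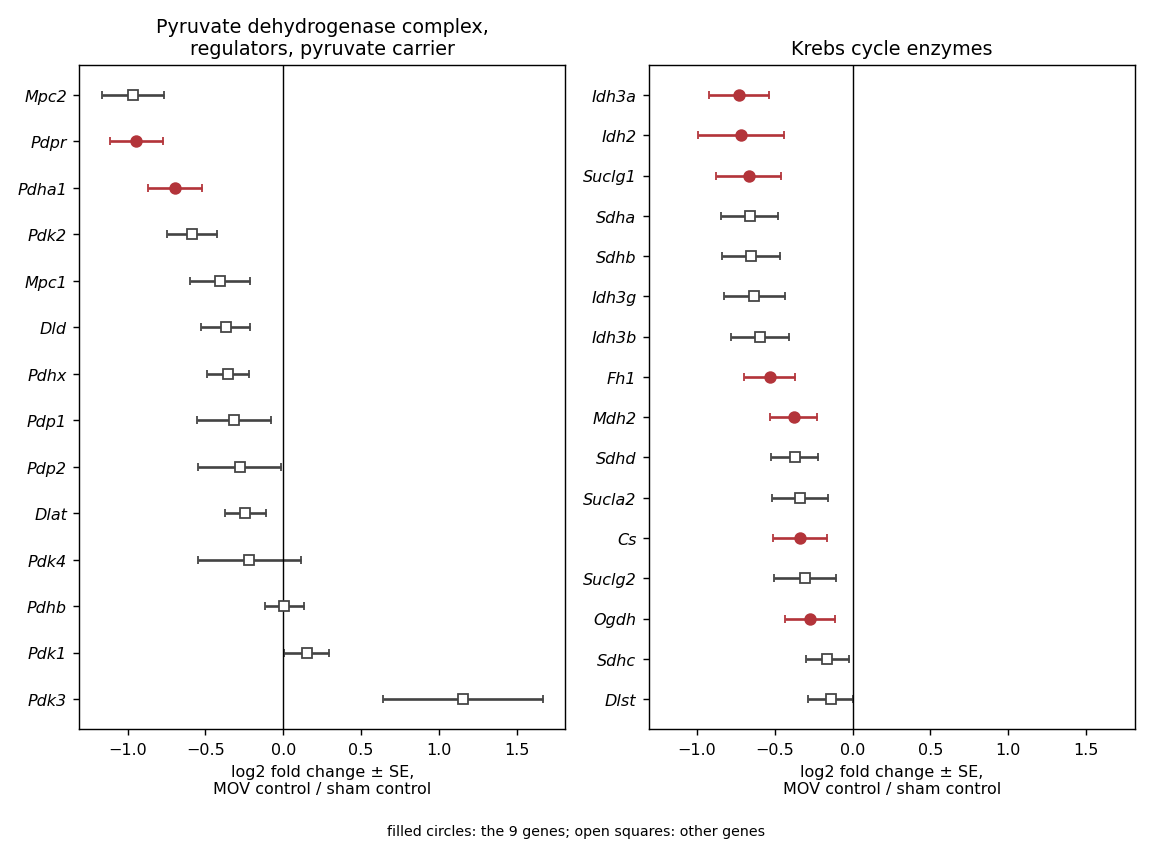
log2 fold change ± standard error in MOV control against sham control (edgeR, 5 libraries per group) for genes of the pyruvate dehydrogenase complex and its regulation (left) and of the Krebs cycle (right), with filled circles for the 9 genes and open squares for the others. All 16 cycle genes shown lie below 0, whereas Pdhb, Pdk1 and Pdk3 lie at or above 0.

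The comparison of MOV mimic with MOV control asks whether the mimic alters these genes in overloaded muscle, and it shares the MOV groups with the comparisons above. None of the 9 genes was called by edgeR or DESeq2 (0 of 9 each, with 0 of 9 at an unadjusted p under 0.05 in edgeR), against 0 of 15220 genes (0.0%) called by edgeR, 4.21% with an unadjusted p below 0.05, and 0.0197% called by DESeq2. The log2FC lay between -0.18 for Mdh2 (95% confidence interval -0.47 to 0.10) and 0.09 for Idh2 (-0.43 to 0.62). With 1 library left out, Suclg1 was between -0.31 and -0.09. Pdha1 had 287 ± 38.7 CPM in MOV mimic and 304 ± 36.8 CPM in MOV control (SD, n = 5), and its interval was -0.39 to 0.24. Pdpr had 29.1 ± 5.49 and 28.6 ± 4.20 CPM, with an interval of -0.33 to 0.40. The intervals of the other genes were -0.40 to 0.25 for Cs, -0.32 to 0.48 for Idh3a, -0.26 to 0.33 for Ogdh, -0.57 to 0.22 for Suclg1 and -0.40 to 0.23 for Fh1. Differences of this size could not be told from the spread between libraries, and the intervals show which sizes the data still allow. The intervals of all mimic comparisons take left and right muscles as separate mice, because the labels do not pair them.

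In the sham muscles, sham mimic against sham control also gave no call (0 of 9 by edgeR and by DESeq2, 0 of 9 at an unadjusted p under 0.05, against 0 of 14746 genes (0.0%) called by either tool and 1.72% with an unadjusted p below 0.05 in edgeR). The log2FC was between -0.13 and 0.07 for 8 of the genes, and -0.41 (standard error 0.24) for Idh2, with adjusted p = 1.000 from edgeR and a 95% confidence interval of -0.94 to 0.12. This log2FC of Idh2 was -0.20 without library 1 of sham control. Idh2 had 277 ± 80.3 CPM in sham mimic and 369 ± 133 CPM in sham control (SD, n = 5), and the 2 groups overlapped. The intervals of Pdha1 (-0.41 to 0.32), Pdpr (-0.33 to 0.42), Cs (-0.40 to 0.37), Idh3a (-0.44 to 0.43), Ogdh (-0.31 to 0.45), Suclg1 (-0.61 to 0.34), Fh1 (-0.45 to 0.32) and Mdh2 (-0.40 to 0.29) all held 0.

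Whether the effect of the mimic differed between MOV and sham muscle was tested as an interaction over all 20 libraries. No gene of the 9 was called by edgeR or DESeq2 (0 of 9, 0 of 9 at an unadjusted p under 0.05), against 0 of 16166 genes (0.0%) called by edgeR, 2.64% with an unadjusted p below 0.05 and 0.00619% called by DESeq2. The interaction log2FC was 0.50 (standard error 0.37) for Idh2, with adjusted p = 1.000 from edgeR and a 95% confidence interval of -0.26 to 1.26, and between -0.14 and 0.07 for the other 8. For Idh2 it was 0.30 without library 1 of sham control. For Pdpr and Pdha1 the intervals were -0.53 to 0.49 and -0.50 to 0.42.

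**Figure D5:**
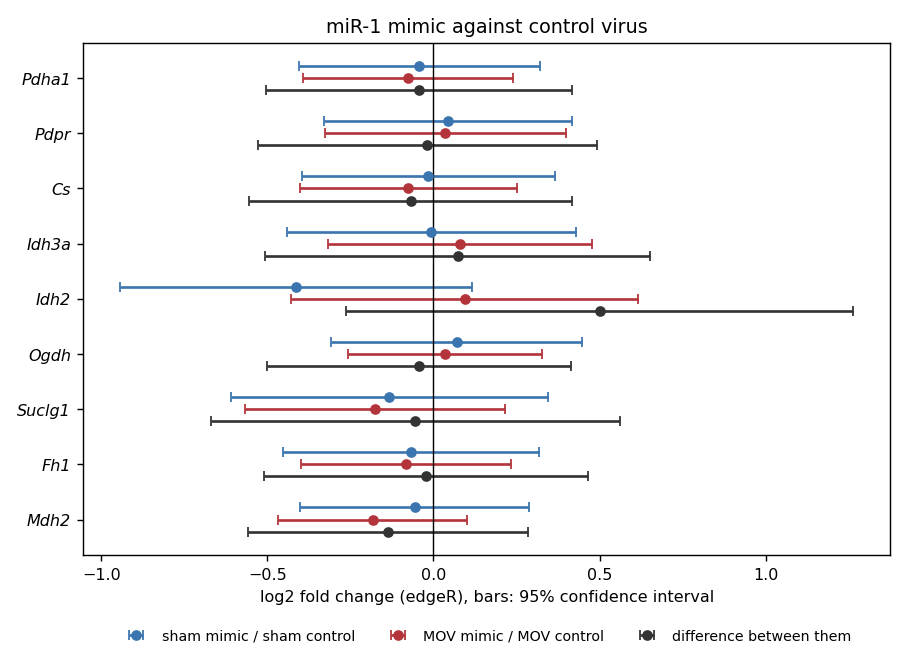
log2 fold change of the 9 genes in mimic against control virus muscle, in sham and in MOV mice, and the difference between these (interaction), with 95% confidence intervals from edgeR. Every interval holds 0, and those of Idh2 are the widest.

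The 9 genes also varied together between libraries of a group. Relative to group means, the log2 CPM of each gene over the 20 libraries correlated with the mean of the other 8 at a Pearson r between 0.705 (Ogdh) and 0.918 (Fh1), except for Idh2, for which r was 0.317. Without library 1 of both sham groups (18 libraries) r was between 0.325 (Ogdh) and 0.847 (Fh1), and -0.113 for Idh2. The closest pair was Idh3a and Suclg1 (r = 0.973). These libraries share the differences in fibroblast and fibre markers given above, so that the values are descriptions only.

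Among 10537 other genes with at least 5 CPM on average, those whose deviations were most like the mean of the 9 included Hadha (r = 0.976), Idh3g (0.959), Atp5a1 (0.957) and Atp5b (0.955), over 20 libraries. Without library 1 of both sham groups their r was between 0.916 and 0.943. Hadha encodes a subunit of the trifunctional enzyme of fat oxidation, and Atp5a1 and Atp5b encode subunits of the ATP synthase.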

How the data were processed

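The deposited values were raw counts of reads per Ensembl gene in 20 libraries, in 1 table per virus. Per the labels and the methods, the authors trimmed reads with Trim Galore 0.6.10 and cutadapt 4.4, aligned them to GRCm38 with HISAT2 2.0.5 and counted them with featureCounts 1.5.0-p3. The annotation, the strandedness and the treatment of multiply aligned reads are not given in the sources used here. Counts were tested with edgeR 4.0.16 (TMM, filterByExpr, glmQLFit, glmQLFTest) in R 4.3.3, and 95% intervals used the standard error from the F statistic. CPM used TMM factors over the 16166 genes that passed the filter in 20 libraries, log2 CPM a prior count of 2, and levels per kb the exon lengths of GENCODE vM1. The alternatives were DESeq2 1.42.0, its size factors in edgeR, no filter, replicate number as a block, all 20 libraries in 1 fit, scaling to 15 fibre genes and leaving out each library. DESeq2 with the block or without single libraries, and the interaction without library 1 of both sham groups, were chosen after seeing the data. The fits were also run on simulated independent counts, which held no differences in composition like that of library 1 of the sham groups. No statement here rests on that run. The 9 genes and the lists were chosen with earlier results of these data known. Named are the 9 genes, all Pdk and Pdp genes, called genes of the 3 pathway lists and the genes among the 5 with the most similar deviations, except 1 gene that is not reported here, and other names are marked as such.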

Additional observations from a re-analysis of the deposited data

Results flagged for a closer look

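In 5 of the 36 sets of 5 libraries (9 genes in 4 groups) the highest or the lowest library lay far from the others when its gap to the nearest library was divided by the range of the set (Dixon's test, threshold 0.71). Chance alone gives this in about 1 of 20 sets that are independent and normally distributed. The 36 sets share the same 20 libraries and are not independent, so that this rate is no measure for them. In sham mimic, library 1 was far above the others for Idh3a (902 CPM), Suclg1 (382 CPM) and Fh1 (390.4 CPM). In sham control, library 1 was far above the others for Ogdh (1077 CPM). In MOV mimic, library 2 was far below the others for Fh1 (146 CPM), and this library also had the lowest sum of fibre genes, 49822 CPM.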

How the results depend on the processing

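edgeR called 0 of the 9 genes in each of the 5 comparisons. In MOV control against sham control the number called was 5 with DESeq2, 2 without the filter on low counts, 1 with all 20 libraries in 1 fit and 4 with DESeq2 and the replicate block, where 3.47%, 0.879%, 0.198% and 2.71% of all genes were called as lower. It was 0 to 3 in edgeR with 1 library left out, namely 3 without sham control library 3 and 1 without MOV control library 5, and 2 to 5 in DESeq2 with 1 library left out (2 without sham control library 2, 5 without sham control library 3 or 4 or MOV control library 5, and 3 otherwise). The edgeR fits with 3 and 1 called 1.66% and 1.35% of all genes as lower, and the DESeq2 fits 1.70% (2 called), 4.95%, 3.67% and 5.83% (5 called) and 1.92% to 2.86% (3 called). In MOV mimic against sham mimic it was 4 with DESeq2 (0.637% of all genes), 2 with DESeq2 and the replicate block (0.362%), and 0 to 2 in edgeR with 1 library left out (2 without MOV mimic library 5, 0.333%). DESeq2 with 1 library left out called 6 without MOV mimic library 5 (4.61% of all genes as lower), 5 without sham mimic library 5 (0.602%), 4 without MOV mimic library 3 (0.826%) and 2 otherwise (0.169% to 0.557%). Under the other settings and in the other 3 comparisons it was 0. Over all genes, edgeR called 1 gene and DESeq2 914 in MOV control against sham control (388 without the filter, 36 with all 20 libraries), 0 and 221 in MOV mimic against sham mimic, and 0 and 3 in MOV mimic against MOV control. The cause of these differences was not tested.

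In MOV control against sham control, 0 of 243 refits of single genes turned the direction, and in MOV mimic against sham mimic 2 of 243 did. These were Idh2 (0.21) and Ogdh (0.043) on the scale of the fibre genes, which moved the median log2FC of all genes by 0.34. In the other comparisons this scaling turned Cs (0.093), Fh1 (0.071) and Pdha1 (0.11) in MOV mimic against MOV control (median moved by 0.18), and Ogdh (-0.014) and Pdpr (-0.023) in sham mimic against sham control (moved by -0.08). In the interaction (moved by 0.27) it turned Cs (0.18), Ogdh (0.21), Suclg1 (0.20), Fh1 (0.21), Mdh2 (0.12), Pdha1 (0.22) and Pdpr (0.22). In sham mimic against sham control, Idh3a was 0.0014 with DESeq2 and 0.0014 with its size factors.

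With 1 library left out, the log2FC in sham mimic against sham control turned for Cs (-0.11 to 0.12), Idh3a (-0.14 to 0.13), Ogdh (-0.035 to 0.21), Suclg1 (-0.29 to 0.0031), Fh1 (-0.20 to 0.061), Mdh2 (-0.16 to 0.062), Pdha1 (-0.13 to 0.071) and Pdpr (-0.047 to 0.17). In MOV mimic against MOV control it turned for Cs (-0.14 to 0.0025), Idh2 (-0.074 to 0.22), Idh3a (-0.094 to 0.16), Ogdh (-0.022 to 0.080), Fh1 (-0.15 to 0.0028) and Pdpr (-0.049 to 0.14). In the interaction it turned for Cs (-0.19 to 0.040), Idh3a (-0.089 to 0.23), Ogdh (-0.18 to 0.076), Suclg1 (-0.18 to 0.12), Fh1 (-0.14 to 0.12), Pdha1 (-0.14 to 0.053) and Pdpr (-0.13 to 0.093), ranges that include the fit without library 1 of both sham groups. None of these differences passed the test in any fit. Idh2 kept its sign in sham mimic against sham control (-0.57 to -0.20) and in the interaction (0.30 to 0.67).

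The labels do not say that equal numbers pair the libraries. The deviations of mimic and control libraries of equal number from their group means correlated at a mean r of 0.232 in sham and 0.163 in MOV muscle over 16166 genes, against -0.0524 and -0.0398 for unequal numbers, and 2 of 5 and 3 of 5 control libraries correlated best with their own number, a hint from the data and not from the design. The lowest r of equal number was 0.0116 and 0.0347. MOV and sham libraries of equal number came from different mice, and their mean r was -0.0793 under the control virus and -0.0870 under the mimic (0 of 5 best with their own number in each), so that the block pairs nothing in the overload comparisons. With the replicate block edgeR called 0 of the 9 in each comparison, and 6 had an unadjusted p under 0.05 in each overload comparison (against 14.8% and 9.34% of all genes), as against 7 without it (18.2% and 13.4%). Under the block 1 gene, Idh2, had an unadjusted p under 0.05 in sham mimic against sham control (3.00% of all genes) and in the interaction (4.73%), where 0 did without it, and 0 did in MOV mimic against MOV control (7.23%). On the scale of the fibre genes, without the block, Idh2 was also under 0.05 in sham mimic against sham control, as were 1.79% of all genes. Its log2FC there was -0.48 (unadjusted p = 0.011 in edgeR), and it was not called. Under the block, Idh2 in sham mimic against sham control was -0.39 (standard error 0.0981), with adjusted p = 1.000 in edgeR, and it was lower in 5 of 5 libraries of equal number, as were 3.36% of all genes. The block turned Cs (0.00025, DESeq2 0.0091) and Idh3a (0.017, DESeq2 0.026) in that comparison. DESeq2 with the block called 722 genes in MOV control against sham control, 116 in MOV mimic against sham mimic, 127 in MOV mimic against MOV control and 5 in the interaction.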
